A study of Mus musculus with 6 samples.

Results

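The 8 genes described here encode the subunits of condensin I and condensin II: Smc2 and Smc4, which both complexes share, Ncapd2, Ncapg and Ncaph of condensin I, and Ncapd3, Ncapg2 and Ncaph2 of condensin II. They were taken as the non-control probes whose gene name in the array files was one of these symbols, which gave 10 probes of 55681 and 8 genes of 22221. Ncapd3 and Ncaph2 had 2 probes each and the other 6 genes 1 each, and 0 further probes were named for a subunit by accession or synonym alone. All 10 probes were well above background on all 6 arrays, so none depended on the filter on dim probes.

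Condensins are ring-shaped ATPases that loop and compact DNA. Smc2 and Smc4 form the ATPase arms, the kleisin subunit (Ncaph or Ncaph2) closes the ring, and a pair of HEAT-repeat subunits (Ncapd2 and Ncapg, or Ncapd3 and Ncapg2) bind it and contact chromatin. Condensin II is nuclear through the cell cycle and starts condensation in prophase, and condensin I reaches chromosomes after the nuclear envelope breaks down. SetD8 (gene Setd8, current symbol Kmt5a) monomethylates lysine 20 of histone H4, a mark that the HEAT-repeat subunits of condensin II bind. Maturing red cell precursors condense their nuclei before they lose them.

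The cells were G1E-ER-GATA-1, a mouse erythroid line that has no Gata1 of its own and carries GATA-1 fused to an estrogen receptor domain. The 3 control arrays held RNA of cells given non-targeting siRNA and the 3 SetD8 arrays RNA of cells given SetD8 siRNA. Both groups grew with erythropoietin, Kit ligand-conditioned medium and puromycin, were nucleofected at 0 h and 24 h, received β-estradiol from 24 h and were harvested at 48 h, after 24 h of β-estradiol. All arrays thus come from 1 line at 1 time, with GATA-1 active only through the fusion protein. The labels do not state whether a group's 3 arrays represent separate cultures, so the p-values reflect the spread between arrays, and that spread may be technical only.

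Signal quality varied more among the controls: 40.2% to 82.5% of the 59305 non-control spots were well above background on the controls and 60.3% to 68.6% on the SetD8 arrays. Control 1 shared slide 1 with SetD8 1 and SetD8 2, control 3 shared slide 3 with SetD8 3, and control 2 was alone on slide 2. Setd8 itself was lower on each SetD8 array than on any control array at both of its probes. At the brighter one, with log2 signals taken relative to the 75th percentile of the array, the controls stood at 4.19, 4.74 and 3.07 and the SetD8 arrays at 1.94, 1.69 and 1.69 (each in the order of replicates 1, 2 and 3, as everywhere here). Of 10 erythroid markers 9 were found (all but Hbb-b1), all 9 well above background on every array, with a summed linear signal (in multiples of the array's 75th percentile) of 1523 to 3157 on the controls and 1686 to 2303 on the SetD8 arrays. Of the megakaryocyte markers 5 of 6 were kept, summing to 44.5 to 60.8 against 47.6 to 124, with Ppbp not kept. Of the granulocyte and macrophage markers 3 of 5 were kept, summing to 13.7 to 24.8 against 16.9 to 23.9, with Mpo and Lyz2 not kept. Of the mast cell markers 1 of 4 was kept, at 0.145 to 0.954 against 0.414 to 0.499, with Cpa3, Fcer1a and Mcpt4 not kept. The erythroid sum is led by Hba-a1, its brightest gene, and single markers differed more between groups than the sums show. Chosen after their values were seen, Slc4a1 (band 3 of the red cell membrane) had a log2 difference of −1.40 at the 75th percentile scaling (−1.19 after the normexp and quantile normalization used below), Csf1r 1.09 (0.97) and Itga2b 0.83 (0.48). For all 3 the groups did not overlap in either setting. None was called by limma, with adjusted p of 0.928 each (0.193, 0.250 and 0.315). Of all 14395 genes tested, 369 were lower and 844 higher without overlap at the 75th percentile scaling (1436 and 1979). Not every erythroid marker went with Slc4a1, and Epb42 had 0.86 (0.41). At the 75th percentile scaling 8 of the 9 erythroid markers were negative and 1 positive, with a median of −0.26. After the other normalization 4 were negative and 4 positive, with a median of 0. The part of these markers in the differences below was not tested, and in such bulk samples fewer cells of a type and less RNA per cell cannot be told apart.

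The promoters of the subunit genes are shown because the genes for mitosis tend to share promoter elements, and because the condensin genes did not all have the same ones. RefSeq promoters (GRCm38.p6, 250 bases before to 50 after a start) were matched for 7 of the 8 genes, all but Smc4, with 2 promoters for Ncapd3. They were searched on both strands for TTTGAA, the core of the cell cycle genes homology region that MuvB complexes bind, for its variant TTCGAA, and for CCAAT, the element that NF-Y binds. A match of one motif may share bases with a match of another, and both are then counted, while TTCGAA reads the same on both strands. The windows below run over the 150 bases before the start, 5′ to 3′ on the gene's strand, with TTTGAA or TTCGAA in capitals.
Ncapd2 (chr6:125191587-125191736, minus strand): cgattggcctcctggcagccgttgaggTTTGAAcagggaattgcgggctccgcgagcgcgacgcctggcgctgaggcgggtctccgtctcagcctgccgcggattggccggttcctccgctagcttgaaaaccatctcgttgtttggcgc
Ncapg (chr5:45669775-45669924, plus strand): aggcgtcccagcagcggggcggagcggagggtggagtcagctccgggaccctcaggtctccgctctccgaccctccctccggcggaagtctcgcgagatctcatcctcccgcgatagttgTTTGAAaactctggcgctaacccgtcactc
Ncapd3 (chr9:27030015-27030164, plus strand): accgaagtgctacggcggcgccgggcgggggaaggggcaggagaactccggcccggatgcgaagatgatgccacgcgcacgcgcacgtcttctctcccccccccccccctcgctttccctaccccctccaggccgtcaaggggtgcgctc
Ncapg2 (chr12:116405286-116405435, plus strand): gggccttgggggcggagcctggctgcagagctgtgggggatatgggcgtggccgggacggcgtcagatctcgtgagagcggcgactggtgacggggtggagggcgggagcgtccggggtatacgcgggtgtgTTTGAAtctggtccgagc
Ncaph2 (chr15:89355569-89355718, plus strand): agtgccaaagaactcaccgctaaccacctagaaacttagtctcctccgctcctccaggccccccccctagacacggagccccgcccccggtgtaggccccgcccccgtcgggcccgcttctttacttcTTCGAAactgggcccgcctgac

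TTTGAA stood in a promoter of 5 of the 7 matched subunit genes. Across all genes in the table it stood in 20.2% of 27025, and in 17.9% of the 32851 promoters. It began 30 bases before the start in Ncapg, 18 before it in Ncapg2 and 123 before it in Ncapd2. In Smc2 it began 145 bases before and 27 after the start, on the other strand. In Ncapd3 it occurred only at the second, downstream promoter, 249 bases before that start, and the first promoter, printed above, held none of the motifs. Ncaph2 had TTCGAA instead, 22 bases before its start, a motif found in 1.56% of all promoters. The promoter window of Ncaph held none of the motifs. CCAAT stood in 3 of the 7 genes (Smc2, Ncapd2 and Ncapg), against 41.1% of all genes. Among the mitosis genes outside condensation, 14 of 18 had TTTGAA and 17 of 18 CCAAT, and among cohesin and Smc5/6 genes 3 of 13 and 6 of 13. A match describes these letters alone, and their absence from a window says nothing about binding elsewhere.

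At the scaling to each array's 75th percentile, all 8 subunits had a lower mean on the SetD8 arrays, but none passed the test. Their log2 differences, SetD8 minus control, ran from −0.98 for Ncapd3 to −0.04 for Ncaph2 with a median of −0.58. Without control 2 that median was −0.28 and without control 3 −0.95. Over all 14395 genes tested the median was 0.06 and 45.9% were below 0. At this scaling limma called 0 of 14395 genes lower (0%) and 0 higher (0%) at a Benjamini-Hochberg adjusted p under 0.05, with 101 lower (0.702%) and 407 higher (2.83%) at an unadjusted p under 0.05. By that unadjusted p 0 of the 8 subunits passed. Setd8, the target of the siRNA, was not called at this scaling either, at −2.23 with no overlap (limma adjusted p = 0.558). The lack of a call here thus does not show that a gene was unchanged. For all 8 subunits the groups' arrays overlapped, while 2.56% of all genes had every SetD8 array below every control. Controls 1 and 2 lay high and control 3 low among the controls for each subunit, and the range among the controls exceeded the difference between the group means. Array weights gave control 1 a weight of 10.4 and controls 2 and 3 weights of 0.155 and 0.131, so the control mean rested mostly on control 1. With these weights 5 subunits were called lower at this scaling, all but Smc4, Ncapd2 and Ncaph2. The same fit called 1680 of all 14395 genes lower and 1407 higher.

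The same arrays were also read after normexp background correction and quantile normalization, which gives all arrays 1 distribution of signals. There the median residual SD of a gene was 0.21 (log2), against 0.49 at the 75th percentile scaling. In this setting 7 of the 8 subunits had a negative difference, with a median of −0.31 against 0.03 over all genes, of which 45% were below 0. One subunit, Ncapd3 of condensin II, passed the test, beside 34 of 14395 genes lower (0.236%) and 211 higher (1.47%). By the unadjusted p 4 subunits were lower (Smc2, Ncaph, Ncapd3 and Ncapg2), against 6.41% of all genes. For 5 subunits every SetD8 array lay below every control (Smc2, Ncapd2, Ncaph, Ncapd3 and Ncapg2), against 9.98% of all genes.

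**Figure D1:**
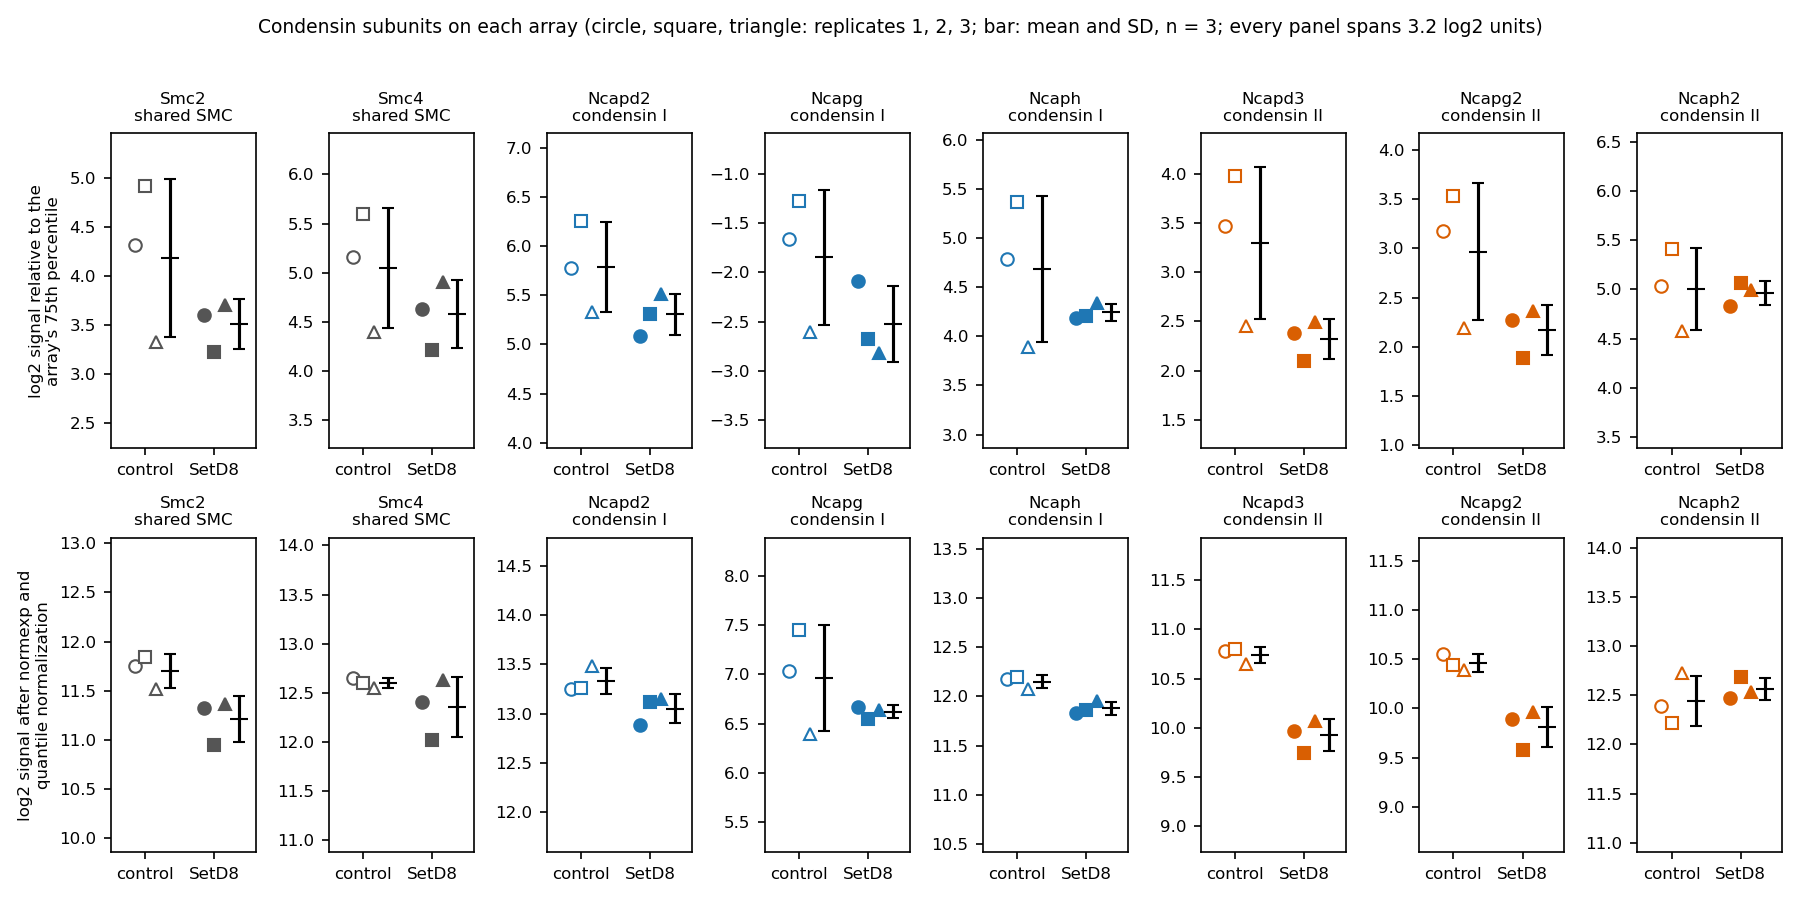
Log2 signal of each subunit on each array (y axis, relative to the array's 75th percentile in the upper row and after normexp and quantile normalization in the lower row), for control and SetD8 siRNA (x axis), with circle, square and triangle for replicates 1, 2 and 3 and bars for mean and SD, n = 3. In the upper row the groups of all 8 subunits overlap, and in the lower row those of Smc2, Ncapd2, Ncaph, Ncapd3 and Ncapg2 are separate.

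Smc2 and Smc4, the ATPase subunits that every condensin contains, were not called in either setting. At the 75th percentile scaling the Smc2 log2 signal (probe at chr4:52501012-52501071, mm9) was 4.31, 4.92 and 3.33 on the controls and 3.60, 3.23 and 3.71 on the SetD8 arrays. Controls 1 and 2 were above all SetD8 arrays and control 3 was inside their range. The difference was −0.68 ± 0.47 (SE), with a 95% interval of −1.78 to 0.43 and a limma adjusted p of 0.928. With normexp and quantile normalization Smc2 stood at 11.75, 11.84 and 11.51 against 11.33, 10.94 and 11.36. Here the groups did not overlap, SetD8 2 being the lowest array, and the difference was −0.49 ± 0.16 (SE, adjusted p = 0.206 by limma).

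Smc4 (chr3:68838437-68838496) showed the same order of arrays with a smaller difference. Its log2 signal at the 75th percentile scaling was 5.16, 5.60 and 4.40 on the controls and 4.63, 4.22 and 4.90 on the SetD8 arrays, and the lowest array of all was SetD8 2. The difference was −0.47 ± 0.42 (SE, adjusted p = 0.928 by limma). After normexp and quantile normalization it was −0.25 ± 0.17 (SE, adjusted p = 0.586), from 12.65, 12.61 and 12.55 against 12.41, 12.03 and 12.63. SetD8 3 then lay among the controls. The median of the Smc2 and Smc4 differences was −0.57 with the first scaling and −0.37 with the other.

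The 3 subunits particular to condensin I had negative differences, from −0.34 to −0.27 after normexp and quantile normalization and from −0.68 to −0.44 at the 75th percentile scaling. None was called in these settings, whereas the array weights at the 75th percentile scaling called Ncapg (adjusted p = 0.0311 by limma) and Ncaph (adjusted p = 0.0356). That weighted fit, whose control mean rested mostly on control 1, also called 1680 of 14395 genes lower and 1407 higher. Ncapd2, a HEAT-repeat subunit (chr6:125118012-125118066), had log2 signals of 13.25, 13.26 and 13.48 on the controls and 12.88, 13.12 and 13.15 on the SetD8 arrays after normexp and quantile normalization. The groups did not overlap, and control 3 was the highest. The difference was −0.28 ± 0.13 (SE, adjusted p = 0.381 by limma), and −0.48 ± 0.36 (adjusted p = 0.928) at the 75th percentile scaling, where the signals were 5.77, 6.25 and 5.34 against 5.09, 5.31 and 5.51.

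Ncaph, the kleisin that closes the condensin I ring (chr2:126929625-126929684), stood at 12.18, 12.19 and 12.07 on the controls against 11.83, 11.86 and 11.95 on the SetD8 arrays after normexp and quantile normalization. Both groups were tight, with an SD of 0.07 each, and did not overlap. The difference was nevertheless small, −0.27 ± 0.11 (SE, adjusted p = 0.293 by limma). At the 75th percentile scaling it was −0.44 ± 0.43 (adjusted p = 0.928), from 4.79, 5.36 and 3.89 against 4.18, 4.21 and 4.34.

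Ncapg, the second HEAT-repeat subunit of condensin I (chr5:46091679-46091738), was read by a dim probe below each array's 75th percentile. Its log2 signals there were −1.66, −1.28 and −2.61 on the controls and −2.09, −2.68 and −2.82 on the SetD8 arrays. Control 3 lay inside the SetD8 range, and the difference was −0.68 ± 0.45 (SE, adjusted p = 0.928 by limma). With normexp and quantile normalization the signals were 7.04, 7.45 and 6.39 against 6.67, 6.55 and 6.64, with control 3 the lowest of all arrays. The difference was then −0.34 ± 0.26 (SE, adjusted p = 0.627), and the offset of the background correction makes differences of dim probes smaller. Without control 3 it was −0.63 and without control 2 −0.09. The median of the 3 condensin I differences was −0.48 at the 75th percentile scaling and −0.28 after the other normalization.

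Among the subunits of condensin II, the HEAT-repeat pair had the largest negative differences of the 8 in both settings, and the sign of the kleisin's difference turned with the setting. Ncapd3, a HEAT-repeat subunit, had log2 signals of 3.47, 3.98 and 2.46 on the controls and 2.38, 2.10 and 2.49 on the SetD8 arrays at the 75th percentile scaling (chr9:26902747-26902806, mm9). Control 3 lay inside the range of the SetD8 arrays. The difference was −0.98 ± 0.45 (SE), with a 95% interval of −2.05 to 0.09 and an unadjusted limma p of 0.0678 (adjusted p = 0.928).

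After normexp and quantile normalization the Ncapd3 signals were 10.78, 10.80 and 10.64 on the controls and 9.96, 9.74 and 10.07 on the SetD8 arrays. Each group spanned less than the gap between them. Ncapd3 fell by 0.81 ± 0.13 (SE, log2), to 56.9% of the control signal, with a 95% interval of −1.12 to −0.51 and a limma adjusted p of 0.0409. Of all genes 0.28% had a difference as low or lower. The call was close to the threshold and was lost without any 1 of the 6 arrays, with adjusted p of 0.239, 0.0877 and 0.0501 without control 1, 2 and 3 and 0.171, 0.148 and 0.119 without SetD8 1, 2 and 3. The differences in those fits lay between −0.89 and −0.72. With slide as a block the difference was −0.77 (adjusted p = 0.153). It was −0.93 within slide 1 and −0.57 within slide 3, whereas the 75th percentile scaling gave 0.04 within slide 3. Other normalizations did not call Ncapd3. Its limma adjusted p was 0.0644 with an offset of 16 and 0.126 after quantile normalization alone. It was 0.0908 at the 75th percentile over detected probes and 0.485 with normexp at the 75th percentile. In all, 3 settings called it. Beside this one they were its stricter filter (0.0174) and the array weights at the 75th percentile scaling (0.00688).

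Ncapd3 had a second probe, printed here because its 60 bases span 135 bases of genome in the file's coordinates, as those of a probe across an exon junction do.
Ncapd3 second probe (chr9:26902163-26902297, mm9): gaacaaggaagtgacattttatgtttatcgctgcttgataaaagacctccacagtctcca
At this probe, scaled to the 75th percentile, the log2 signal was 1.06, 1.72 and 0.28 on the controls and 0.19, −0.82 and 0.07 on the SetD8 arrays. Every SetD8 array lay below every control, with SetD8 1 the nearest to them. The difference was −1.21, with an exact two-sided permutation p of 0.1, the smallest that 3 against 3 arrays allow. With normexp and quantile normalization it was −0.89 (limma adjusted p = 0.269 over all probes), from 8.77, 9.06 and 8.36 against 8.13, 7.39 and 7.99. In that fit over probes the brighter Ncapd3 probe had an adjusted p of 0.0911. Both probes were thus lower on the SetD8 arrays by a like amount, and neither was called when every probe was fitted on its own.

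Ncapg2, the other HEAT-repeat subunit of condensin II (chr12:117701714-117701773), ordered the arrays within each group as Ncapd3, Smc2 and Smc4 did at the 75th percentile scaling. Its log2 signals there were 3.18, 3.53 and 2.19 on the controls and 2.27, 1.88 and 2.36 on the SetD8 arrays, and control 3 again lay inside the SetD8 range. The difference was −0.80 ± 0.43 (SE, adjusted p = 0.928 by limma). After normexp and quantile normalization the signals were 10.56, 10.44 and 10.39 against 9.89, 9.58 and 9.96, with no overlap and SetD8 2 the lowest. The difference was −0.65 ± 0.14 (SE), with a 95% interval of −0.99 to −0.32, and did not pass the test (adjusted p = 0.0829). It did pass, with an adjusted p of 0.0414, when the test was limited to the 10812 genes well above background on every array, where that of Ncapd3 was 0.0174. Of these 10812 genes, 158 were called lower and 439 higher in the same fit. Within slide 1 the Ncapg2 difference was −0.82 and within slide 3 −0.43.

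Ncaph2, the kleisin of condensin II, was read by 2 probes, of which the brighter, printed here, again spans more genome (143 bases) than its 60 bases.
Ncaph2 brighter probe (chr15:89201188-89201330, mm9): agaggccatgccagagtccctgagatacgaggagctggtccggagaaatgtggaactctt
At this probe, scaled to the 75th percentile, the log2 signal was 5.04, 5.41 and 4.57 on the controls and 4.83, 5.07 and 4.99 on the SetD8 arrays. All SetD8 arrays lay between control 3 and control 2. The difference was −0.04 ± 0.34 (SE, 95% interval −0.85 to 0.77, adjusted p = 0.980 by limma). With normexp and quantile normalization the sign turned: 12.39, 12.22 and 12.72 on the controls against 12.47, 12.68 and 12.53, a difference of 0.12 ± 0.16 (SE, 95% interval −0.26 to 0.50, adjusted p = 0.797).

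The dimmer Ncaph2 probe (chr15:89203198-89203257) was higher on the SetD8 arrays in both settings. Its log2 signals after normexp and quantile normalization were 11.59, 11.61 and 11.68 against 11.76, 12.02 and 12.08, and every SetD8 array lay above every control, as for 13.7% of all genes. The difference was 0.33 (adjusted p = 0.487 by limma over all probes), and 0.19 at the 75th percentile scaling, where the groups overlapped. Neither probe gave a call for Ncaph2. The interval at the brighter probe after normexp and quantile normalization does not reach the values measured for Ncapd3 or Ncapg2. At the 75th percentile scaling its interval, −0.85 to 0.77, includes the −0.80 of Ncapg2 and overlaps the interval of Ncapd3, −2.05 to 0.09. The median over the 3 condensin II subunits, −0.80 at the 75th percentile scaling and −0.65 otherwise, is the value of Ncapg2.

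**Figure D2:**
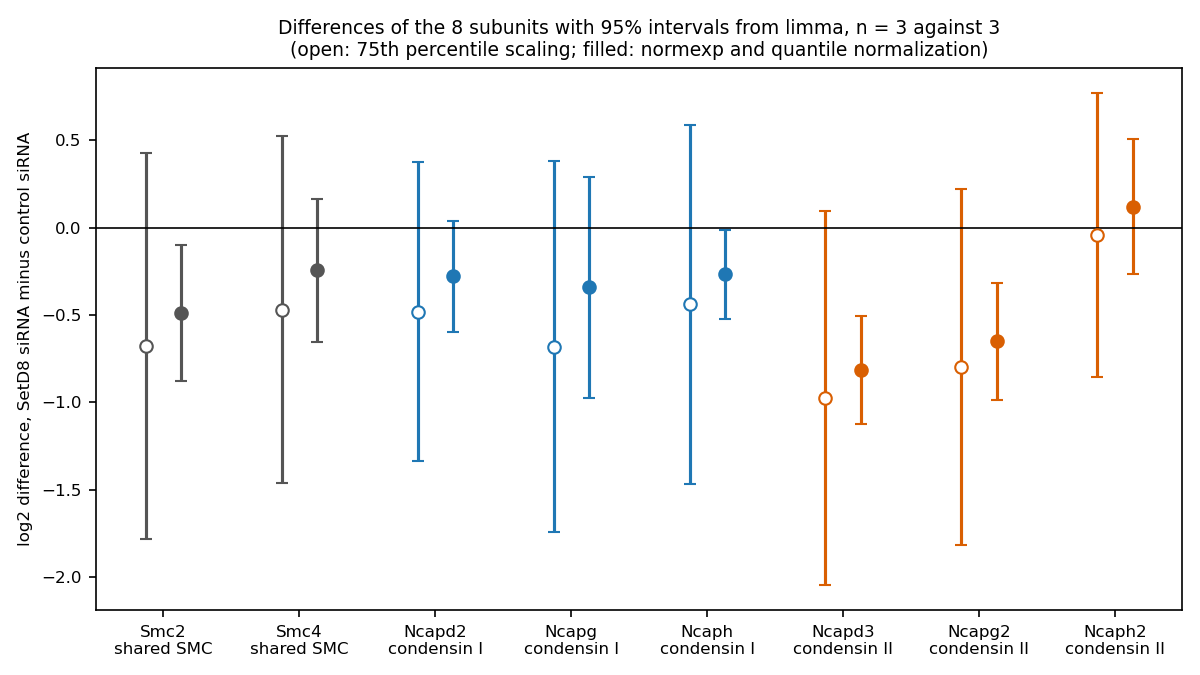
Log2 difference of each subunit, SetD8 minus control siRNA (y axis), with 95% intervals from limma, n = 3 arrays against 3, at the 75th percentile scaling (open) and after normexp and quantile normalization (filled). Ncapd3 at −0.81 and Ncapg2 at −0.65 lie lowest among the filled points and Ncaph2 at 0.12 highest, while all open intervals include 0.

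A ratio of 2 subunits within an array does not change with the array's scaling factor. It does change with the background correction and with quantile normalization. The ratios were added after the values of the single subunits had been seen, and are given as a description. Their changes between groups can be read, but their levels cannot, since different probes differ in brightness. An exact two-sided permutation test cannot give a p below 0.1 here, and for pairs chosen with the values known its p is no support. At the 75th percentile scaling it gave 0.1 for Ncapd3 over Ncaph2 and for Ncapg2 over Ncaph2 (0.25 each after Benjamini-Hochberg adjustment over the 5 pairs). At the 75th percentile scaling the log2 ratio of Ncapd3 over Ncaph2, both of condensin II, was −1.57, −1.43 and −2.12 on the controls and −2.45, −2.97 and −2.50 on the SetD8 arrays. All SetD8 arrays lay below all controls, and the mean ratio had a change of −0.94. The change was −1.14 within slide 1 and −0.39 within slide 3. For Ncapg2 over Ncaph2 the log2 ratio was −1.86, −1.88 and −2.38 against −2.57, −3.18 and −2.63, again with no overlap. The change was −0.76 in all, −1.01 within slide 1 and −0.25 within slide 3.

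Ratios across the complexes had smaller changes. The log2 ratio of Ncapd3 over Ncapd2, the counterparts in condensin II and condensin I, was −2.31, −2.27 and −2.88 on the controls and −2.71, −3.21 and −3.02 on the SetD8 arrays. SetD8 1 lay above control 3, so the groups overlapped, and the change was −0.49. For Ncapg2 over Ncapg, the other HEAT-repeat counterparts, the change was −0.12 and the groups overlapped. That change was −0.59 with normexp at the 75th percentile and 0.04 after quantile normalization alone, and the Ncapg probe was dim. For the kleisins, Ncaph2 over Ncaph, the change at the 75th percentile scaling was 0.40. The values were 0.25, 0.04 and 0.68 against 0.65, 0.86 and 0.65, with control 3 inside the SetD8 range. After normexp and quantile normalization the 5 changes were −0.93, −0.77, −0.54, −0.31 and 0.39 in the same order, and Ncapd3 over Ncapd2 then had no overlap.

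**Figure D3:**
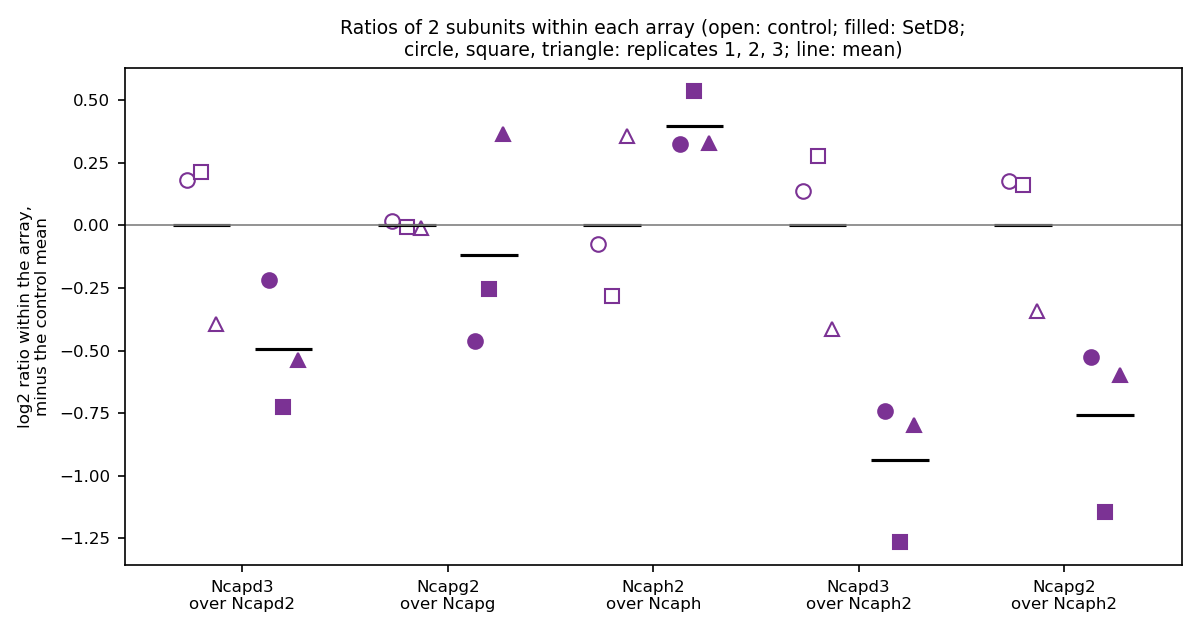
Log2 ratio of 2 subunits within each array minus the mean ratio of the controls (y axis) at the 75th percentile scaling, for 5 pairs (x axis), with open symbols for control and filled ones for SetD8, circle, square and triangle for replicates 1, 2 and 3, and lines for means. For Ncapd3 over Ncaph2 (mean change −0.94) and Ncapg2 over Ncaph2 (−0.76) all filled symbols lie below all open ones, and for the other 3 pairs they overlap.

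The differences were not the same on both slides that held both groups. At the 75th percentile scaling the median over the 8 subunits was −0.73 within slide 1, where 2 SetD8 arrays stood beside control 1, and 0.28 within slide 3, where SetD8 3 stood beside control 3. Over all genes the same medians were −0.09 and 0.32, and 7 of the 8 subunits were above 0 within slide 3, all but Ncapg at −0.21. With normexp and quantile normalization the medians over the subunits were −0.43 within slide 1 and −0.17 within slide 3. On both slides 5 subunits were then below 0: Ncapd3 (−0.93 and −0.57), Ncapg2 (−0.82 and −0.43), Smc2 (−0.61 and −0.15), Ncapd2 (−0.25 and −0.33) and Ncaph (−0.33 and −0.12). The other 3 changed sign: Ncaph2 was 0.19 and −0.19, Smc4 −0.43 and 0.08 and Ncapg −0.43 and 0.25. The share of spots well above background was highest on control 3, and its part in these values was not tested.

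Partners of condensin in mitosis and genes of neighbouring pathways were read in the same fits, after normexp and quantile normalization. Over all 14395 genes there, 6.41% were lower and 9.39% higher at an unadjusted p under 0.05, 45% had a negative difference and the median was 0.03, and the counts of each list stand against these shares. Of 20 measured condensation partners and regulators (Aurkb was not measured) 0 passed in either direction by limma, 10 were lower and 1 higher by the unadjusted p (all genes 6.41% and 9.39%), 18 had a negative difference (all genes 45%), and the median was −0.33, close to the −0.31 of the subunits. Top2a, the topoisomerase that acts on chromosomes with condensin, had a difference of −0.52 (adjusted p = 0.108 by limma). Birc5 (survivin) of the chromosomal passenger complex had −0.44 (adjusted p = 0.114), and Sgo1, which protects centromeric cohesin, −0.37 (adjusted p = 0.139). Of 20 mitosis genes outside condensation 0 passed, 11 were lower and 0 higher by the unadjusted p (all genes 6.41% and 9.39%), 19 were negative (all genes 45%) and the median was −0.34. Kif11 and Kif23, spindle kinesins, stood at −0.67 (adjusted p = 0.0668) and −0.74 (adjusted p = 0.0816), and Espl1, the separase that cuts cohesin, at −0.52 (adjusted p = 0.0896). These values are of the size seen for Ncapg2, so differences of this size were not confined to condensin.

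Of 19 genes of cohesin and Smc5/6, the other SMC complexes, 0 passed, 3 were lower and 0 higher by the unadjusted p (all genes 6.41% and 9.39%), 16 were negative (all genes 45%) and the median was −0.24. The cohesin kleisin Rad21 had −0.47 (adjusted p = 0.113 by limma), the HEAT-repeat subunit Stag1 −0.52 (adjusted p = 0.215) and Smc1a −0.25 (adjusted p = 0.315). Of 15 measured E2F, DREAM and MuvB factors, which control cell cycle promoters, 0 passed, 5 were lower and 1 higher by the unadjusted p (all genes 6.41% and 9.39%) and 11 were negative (all genes 45%), with a median of −0.37. E2f8, a repressor of E2F targets, had −0.53 (adjusted p = 0.0883) and Lin9, a core MuvB subunit, −0.73 (adjusted p = 0.198), while Rb1 had 0.59 (adjusted p = 0.0636). Of 7 measured H4K20 writers, erasers and readers 1 passed, Setd8 itself (−2.07, adjusted p = 0.00848), 2 were lower (Setd8 and Kmt5b) and 0 higher by the unadjusted p, 6 were negative and the median was −0.04. Kmt5b, which adds further methyl groups to H4K20, had −0.48 (adjusted p = 0.305) and Orc1, a reader of H4K20me2, −0.35 (adjusted p = 0.718). At the 75th percentile scaling 0 genes of these 5 lists passed by limma, with 1 condensation and 1 H4K20 gene lower by the unadjusted p. The medians there were −0.54 for condensation, −0.57 for mitosis, −0.43 for cohesin and Smc5/6, −0.55 for E2F, DREAM and MuvB and −0.25 for H4K20. Within slide 3 at that scaling all 5 were above 0, at 0.16, 0.21, 0.45, 0.28 and 0.45 in the same order, with 0.32 for all genes. Leaving out 1 array moved them between −0.83 and −0.24, −0.92 and −0.28, −0.77 and −0.12, −0.80 and −0.21, and −0.61 and −0.03, the ends being those without control 3 and without control 2.

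**Figure D4:**
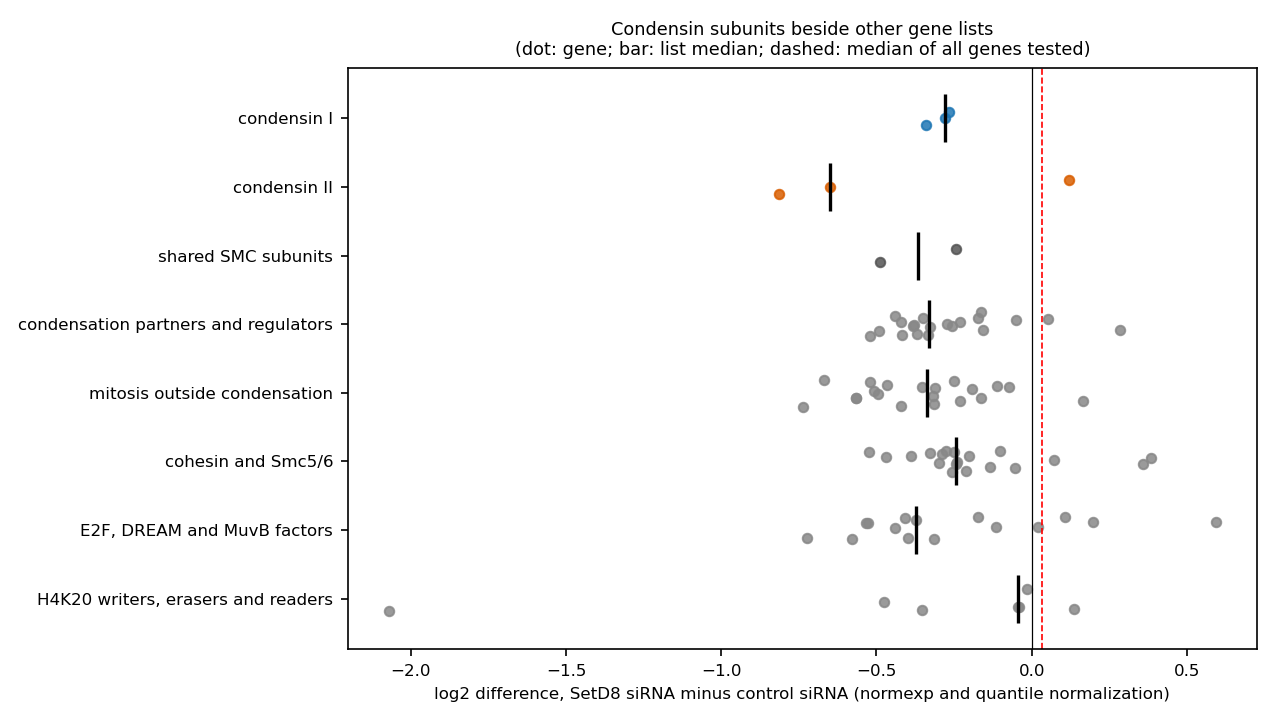
Log2 difference, SetD8 minus control siRNA, after normexp and quantile normalization (x axis) for each gene (dots) of the condensin subunits and of 5 other lists (y axis), with bars for list medians and a dashed line for the median of all genes tested, 0.03. The medians of condensin I (−0.28) and the shared subunits (−0.37) lie near those of condensation (−0.33) and mitosis genes (−0.34), and Ncaph2 is the 1 subunit above 0.

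The genes whose pattern over the 6 arrays was nearest to the mean profile of the subunits, by root mean square distance of centred log2 values after normexp and quantile normalization, were Rpgr (0.0223), Rbbp7 (0.0231), Slc20a1 (0.0251), Kdm6a (0.0281) and Chtop (0.0288). Their differences lay between −0.42 and −0.36, which follows from their selection by pattern over the same arrays. Rbbp7 is a histone-binding WD-repeat protein and Kdm6a a demethylase of H3K27. None of the 5 was called, with adjusted p of 0.137 to 0.213 by limma. Among the subunits Ncaph lay nearest to the mean profile, at 0.071 (rank 85 of all genes), and Ncaph2 farthest from it, at 0.331 (rank 8474). All subunits entered that mean, and the next farthest were Ncapg at 0.275 and Ncapd3 at 0.224.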

How the data were processed

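Linear spot intensity was read from the 6 scanner files that the authors deposited, 1 per array (Cy3, 1 colour). Per the file headers they come from Agilent Feature Extraction 10.7.3.1, with coordinates on mm9. The submitters' processing notes name limma, and the authors' normalization between arrays was not given in the sources used here. The deposited series matrix equals the processed signal within 0.006 and is not normalized between arrays. Control spots and outlier spots were left out. Subunits were matched by the files' gene names, and other genes through a RefSeq table (GRCm38.p6, names only) by accession (26762 probes), symbol (3819) or synonym (639). Probes had to be well above background on every array of 1 group or both. The brightest such probe stood for its gene, which left 14395 genes.

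Log2 processed signal minus each array's 75th percentile was the set scaling. Normexp (offset 50) with quantile normalization was a listed alternative, used beside it because the first called 0 genes. Differences were tested with limma 3.58.1 in R 4.3.3 (two-sided, Benjamini-Hochberg over all genes, threshold 0.05). An exact permutation test was also run on single probes and on the ratios. Lists are described by counts and medians with no test. The values of 1 marker list are not reported here.

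The members, lists and tests were chosen with earlier results of these data known. The named genes are the 8 members, Setd8, the 3 genes of each list with the smallest p, any past the threshold, and the 5 genes nearest in pattern. Alternatives were other background corrections, offsets, scalings, filters and gene summaries, moderation, array weights, slide or replicate number as a block, and each array left out. The fit was tested on simulated data. Other tools were Python 3.11.15, pandas 2.3.3, numpy 2.4.6 and matplotlib 3.10.9.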

Additional observations from a re-analysis of the deposited data

How the results depend on the processing

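The number of arrays, 3 a group, limits the precision. Of 35 settings, some of which leave the difference as it was by construction, Smc2, Ncapd2, Ncapg, Ncaph, Ncapd3 and Ncapg2 had negative differences in 34 each, Smc4 in 33 and Ncaph2 in 16. Against 0 genes higher and 0 lower at the 75th percentile scaling, limma called 211 and 34 after normexp and quantile normalization (1 subunit). It called 47 and 2 with normexp at the 75th percentile, 115 and 9 with an offset of 16, 43 and 2 after quantile normalization alone, and 126 and 9 at the 75th percentile over detected probes. It called 118 and 14 over probes well above background on all 6 arrays (439 and 158, with 2 subunits, after normexp and quantile normalization). It called 16 higher with trend and robust moderation, 1407 and 1680 with array weights (5 subunits), and 117 and 13 with slide as a block (13 and 1 after normexp and quantile normalization). Leaving out 1 array gave 0 to 131 higher and 0 to 10 lower, or, after normexp and quantile normalization, 101 and 9 without control 2, 174 and 33 without control 3, 5 and 0 without SetD8 3 and 0 and 0 without control 1, SetD8 1 or SetD8 2. Without 1 array the medians ran from −0.95 to −0.28 (8 subunits), −0.83 to −0.25 (condensin I), −0.95 to −0.25 (shared) and −1.18 to −0.51 (condensin II) at the 75th percentile scaling. Median scaling moved the medians to −1.09 (8 subunits), −0.99 (condensin I), −1.08 (shared) and −1.31 (condensin II), with −0.46 for all genes. Within slide 3 at the 75th percentile scaling the medians were 0.28 (8 subunits), 0.44 (shared), 0.18 (condensin I) and 0.17 (condensin II). The cause of these shifts was not tested.

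Differences turned positive within slide 3 at the 75th percentile scaling for Smc2 (0.38), Smc4 (0.51), Ncapd2 (0.18), Ncaph (0.45), Ncapd3 (0.0352), Ncapg2 (0.17) and Ncaph2 (0.42). They did so there for Smc4 (0.0840) and Ncapg (0.25) after normexp and quantile normalization. Ncaph2 was also positive after normexp and quantile normalization (0.12, the same with the replicate block or the stricter filter; 0.0273 with slide as a block, 0.19 within slide 1, 0.0917, 0.00707 and 0.26 without control 1, 2 and 3, and 0.17, 0.0588 and 0.13 without SetD8 1, 2 and 3). It was positive with an offset of 16 (0.12), quantile normalization (0.13), detected probes (0.0899), the mean of its probes (0.0726) and slide as a block (0.13), and ran from −0.26 to 0.16 without 1 array at the 75th percentile scaling. The ratio of Ncapg2 over Ncapg turned positive after quantile normalization (0.0405), within slide 3 (0.38) and without SetD8 1 (0.0559, in a range of −0.36 to 0.0559 without 1 array), and Ncaph2 over Ncaph negative within slide 3 (−0.0287, and −0.0701 after normexp and quantile normalization).

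Same-numbered arrays did not deviate together (correlations 0.24, −0.27 and −0.37), so the replicate numbers were not taken as pairs. With the replicate block Ncapd3 had −0.81 (adjusted p = 0.194) after normexp and quantile normalization and −0.98 at the 75th percentile scaling.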
